A study of Mus musculus with 12 samples.

Results

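A set of 10 genes that act in genome folding was examined in mouse embryonic stem cells (mESCs): the insulator factor Ctcf, the cohesin subunits Smc1a, Smc3, Rad21, Stag1 and Stag2, the loader Nipbl, the release factor Wapl, and the cohesin-bound regulators Pds5a and Pds5b. They were listed by name and not by a rule on their values, although earlier results of these data were known. All 10 were found among the 39017 genes of the count table, where Wapl carries its older name Wapal. RNA was sequenced from 12 libraries, with 3 biological replicates in each of 4 groups, so that lines and media could be compared. J1 is a male wild-type line. The line labelled 3B3-3l, here 3B3L, lacks the endogenous Dnmt3a and Dnmt3b genes and carries a Dnmt3b transgene driven by a CAG promoter together with a Flag-tagged Dnmt3l transgene driven by pCAGGS. Each line was grown with LIF either in serum or in 2i, a serum-free N2B27 medium with the MEK inhibitor PD0325901 at 1 µM and the GSK3 inhibitor CHIR99021 at 3 µM. In serum, J1 cells were kept on inactivated feeder cells that were depleted before harvest, and 3B3L cells on gelatin. Line and growth surface therefore cannot be told apart in serum. The paper names feeders for J1 in serum culture only and depletes them for conversion to 2i. In J1, medium and feeder culture therefore changed together and cannot be told apart. This also bears on the difference of the 2i effects between lines. 3B3L stands for 1 derived line, and differences from J1 may belong to that line as well as to its transgenes.

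As background, cohesin is a ring of Smc1a, Smc3 and Rad21 to which either Stag1 or Stag2 binds. Nipbl loads and drives it, the ring extrudes chromatin into loops, and CTCF bound to DNA in the convergent orientation halts it, which gives the corner loops and domain borders seen in Hi-C maps. Wapl, helped by the Pds5 proteins, releases the ring, and Stag1-cohesin is known for long-lived loops at CTCF sites while Stag2-cohesin is more dynamic. The measurements below are of messenger RNA, and protein, binding and loops were not measured in these files.

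Promoters of 7 of the 10 genes (Ctcf, Smc1a, Smc3, Stag1, Wapl, Pds5a and Pds5b) were in the RefSeq promoter table used here (build GRCm38.p6, mm10). Because 3B3L differs from J1 in the enzymes that methylate CG dinucleotides, the CG dinucleotides of these promoters are shown for 2 genes, Ctcf, the member with the lowest level in 3B3L serum relative to J1, and Smc1a, the member with the fewest. Letters are 5′ to 3′ on the plus strand, each CG is in capitals, and the stretch ends at the base before the annotated gene. Ctcf spans chr8:105636288-105636473 and Smc1a spans chrX:152016178-152016427.
Ctcf: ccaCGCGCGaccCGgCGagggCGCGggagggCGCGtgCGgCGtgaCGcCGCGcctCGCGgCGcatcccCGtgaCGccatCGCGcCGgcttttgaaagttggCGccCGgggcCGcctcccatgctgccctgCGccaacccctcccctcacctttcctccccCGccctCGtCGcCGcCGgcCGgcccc
Smc1a: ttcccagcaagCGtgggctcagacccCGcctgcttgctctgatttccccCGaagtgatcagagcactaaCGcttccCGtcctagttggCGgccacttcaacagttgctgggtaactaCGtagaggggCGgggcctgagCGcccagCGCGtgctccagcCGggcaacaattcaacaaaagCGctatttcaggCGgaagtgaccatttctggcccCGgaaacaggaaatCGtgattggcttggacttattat
The stretch of 186 bases printed for Ctcf holds 32 CG and that of 250 bases for Smc1a holds 16. Over the full 250 bases before the start site of the promoter table, Ctcf held 40 CG and Smc1a 16, and Pds5a held the highest number, 44. For Ctcf and Pds5b these bases run on into the annotated gene, and for Stag1 and Wapl they lie wholly inside it. The median of the 7 genes was 32 CG, while the median of the 32851 promoters searched was 6. Of all promoters of this length, 1.31% held at least 40 and 25.4% at least 16. CG was counted once for both strands, and 92.1% of the promoters searched held at least 1. No methylation values were analysed here, and the counts describe the sequence alone.

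Depth ran from 37050652 to 44515395 estimated reads per library. A count of 3 reads amounts to 0.0674 CPM in the deepest library, and the lowest value of any of the 10 genes was 62.3 CPM, so counting error was small for all of them. The 10 genes held 0.166% to 0.193% of the reads. All 8 mESC markers were expressed in every group, with a summed level between 4253 and 5668 CPM. Dnmt3b, for which 3B3L carries a transgene, stood at 890.8 ± 32 CPM in 3B3L serum and 928 ± 12.7 in 3B3L 2i, against 413 ± 12.2 and 44.1 ± 3.12 in J1 serum and J1 2i (SD, n = 3). Transgene reads and any reads of the disrupted endogenous Dnmt3b gene were not separated. Reads of the disrupted Dnmt3a gene were lower in 3B3L than in J1, at 32.1 ± 2.5 against 166 ± 0.792 CPM in serum and 4.67 ± 0.584 against 41.5 ± 2.78 CPM in 2i. Dnmt3l counts in 3B3L cover the transgene and the endogenous gene, which is not among those removed, and the 2 sources were not separated. They stood at 484.6 ± 32.9 CPM in 3B3L serum and were lower in 3B3L 2i, at 289.8 ± 4.57 CPM (log2 fold change -0.74, edgeR adjusted p = 1.37e-08). In J1, Dnmt3l fell by 2.43 on the log2 scale (edgeR adjusted p = 2.85e-14).

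Levels were compared between genes as RPKM, the estimated reads per kb of effective transcript length scaled to the TMM library size. Rad21 had the highest level in every group, from 90.1 ± 1.71 in 3B3L serum to 117 ± 2.62 in 3B3L 2i (SD, n = 3). Wapl followed, at 83.9 ± 10.1 to 94.3 ± 6.86, and its range overlapped that of Rad21 in 3B3L serum. This place rested on a processed transcript of 382 bases, Wapl-005, which took 40.5% to 44.6% of Wapl TPM but 3.31% to 4.08% of its reads. With transcript models of at least 1000 bases, Wapl stood at 47.0 ± 0.376 RPKM in J1 serum. Ctcf, Smc3, Smc1a and Pds5a formed a middle group between 42.8 and 74.5 RPKM, and in 3B3L serum the range of each overlapped that of the next. Stag1 lay below them, at 21.7 ± 1.4 to 35.2 ± 2.67, with no overlap with the gene above it in any group. Stag2, Pds5b and Nipbl were the lowest, between 11.1 and 22.8, and their order changed from group to group. In both 2i groups the ranges of neighbours among these 3 genes overlapped. The highest gene, Rad21, exceeded the lowest, Nipbl, by 7.55-fold over all groups.

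**Figure D1:**
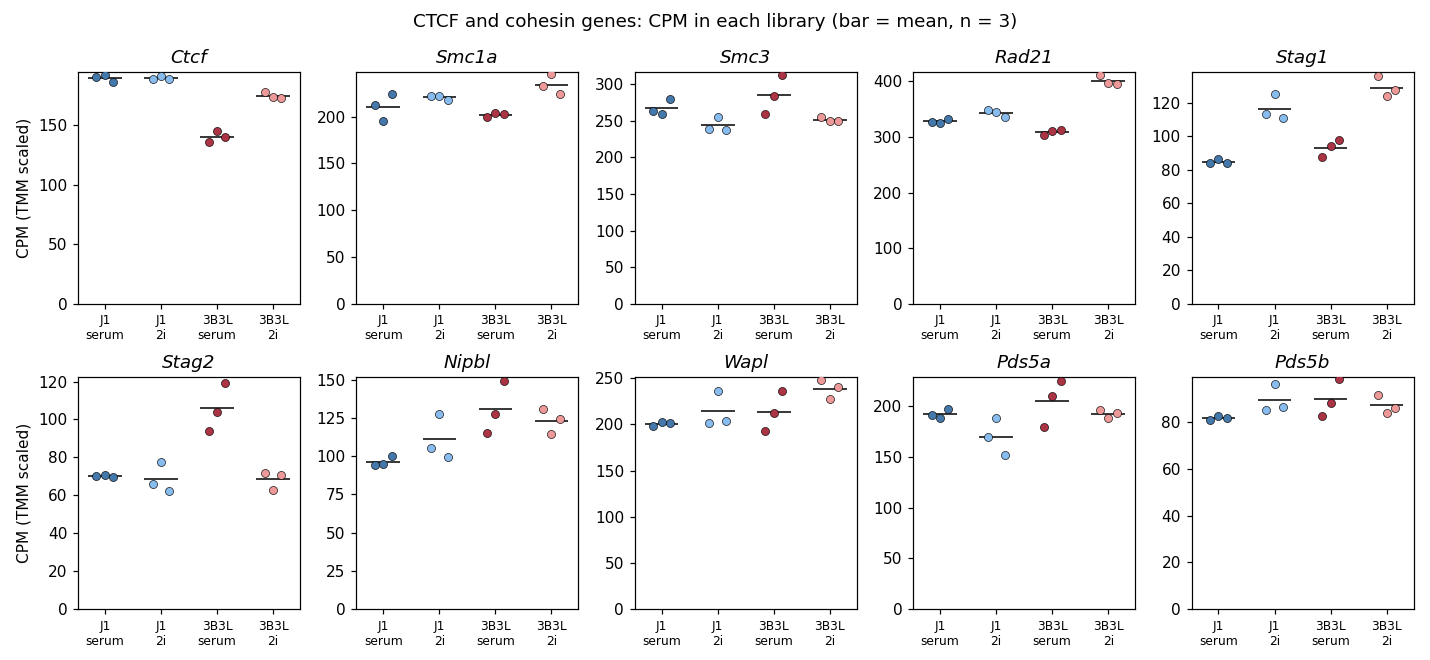
CPM of the 10 genes (y axes from 0) in each of the 12 libraries, grouped by line and medium; points are libraries and bars are means of 3. Ctcf is lowest in 3B3L serum (136 to 145 CPM), Stag2 is highest there (93.9 to 119 CPM), and Stag1 is higher in 2i in both lines.

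The first question was whether these genes differed between media in wild-type cells, where feeder culture changed along with the medium. Counts per gene were tested with edgeR across all 17885 genes that passed a filter on low counts, which all 10 genes did, and a gene is called where its adjusted p is under 0.05. In J1, 1 of the 10 genes, Stag1, was called between 2i and serum, and it was higher in 2i. Of all genes tested, 66.1% were called and 33.2% were called higher. The share of called genes among the 10 was below this background, but it depended on the processing. With no filter on low counts 4 of the 10 (Stag1, Smc3, Nipbl and Pds5a) and 42.6% of all genes were called. Without J1 2i replicate 2, Smc3 and Pds5a were called as well as Stag1 (edgeR adjusted p = 0.0362 and 0.0083), and without J1 2i replicate 3, Nipbl was (edgeR adjusted p = 0.0183). The median log2 fold change of the 10 genes was 0.06, and that of all genes 0.01.

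Stag1 encodes one of the alternative cohesin subunits. It stood at 84.0, 86.5 and 84.1 CPM in J1 serum and at 114, 125 and 111 CPM in J1 2i. All 2i libraries lay above all serum libraries. The log2 fold change was 0.46 ± 0.06 (SE, edgeR adjusted p = 3.09e-06), a 1.37-fold rise. Ctcf showed no detectable difference, with 191, 192 and 186 CPM in J1 serum and 189, 191 and 189 CPM in J1 2i. Its groups overlapped, and the 95% interval of its log2 fold change ran from -0.09 to 0.09. With transcript length offsets the value was -0.16 (edgeR adjusted p = 0.0465). Rad21, the subunit that closes the ring, stood at 328, 326 and 333 CPM in J1 serum and 348, 345 and 335 CPM in J1 2i. These ranges did not overlap, but the log2 fold change of 0.06 ± 0.04 was not called (edgeR adjusted p = 0.206).

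The ring subunits Smc3 and Smc1a gave log2 fold changes of -0.13 ± 0.06 and 0.07 ± 0.05 in J1 (edgeR adjusted p = 0.0643 and 0.268). Stag2 stood at -0.03 ± 0.09, with an interval from -0.22 to 0.15. The loader Nipbl gave 0.21 ± 0.09 (edgeR adjusted p = 0.0637), and the release genes Wapl, Pds5a and Pds5b gave 0.10, -0.18 and 0.13 (edgeR adjusted p = 0.25, 0.0584 and 0.0961). Groups did not overlap for 4 of the 10 genes (Smc3, Rad21, Stag1 and Pds5b), and for 68.7% of all genes.

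In 3B3L, which carries the Dnmt3b and Dnmt3l transgenes, 6 of the 10 genes were called between 2i and serum. Ctcf, Smc1a, Rad21 and Stag1 rose in 2i, and Smc3 and Stag2 fell. Of all genes tested, 65.4% were called, 32.7% higher and 32.7% lower, so the share among the 10 was near the background. Groups did not overlap for 6 of the 10, the same 6, and for 69.6% of all genes. At 1.5-fold or more, 1 of the 10, Stag2, remained, against 36.4% of all genes.

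Ctcf stood at 136, 145 and 139.5 CPM in 3B3L serum and at 178, 173 and 173 CPM in 3B3L 2i. The groups did not overlap, and the log2 fold change was 0.32 ± 0.04 (edgeR adjusted p = 5.06e-06). Genes of chromosome 8, which holds Ctcf (8:105636474-105682922), moved as a group in this comparison. Their median log2 fold change was 0.29 over 464 genes averaging 10 CPM or more, the highest of 20 chromosomes, while the median over all chromosomes was 0.09. Ctcf differed from the median of its chromosome by 0.02, and 53.4% of the chromosome's genes had a lower value. The part of this shift in the Ctcf result was not tested.

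Rad21 stood at 303, 312 and 312 CPM in 3B3L serum and at 412, 397 and 395 CPM in 3B3L 2i. Every 2i library exceeded every serum library by more than the spread within groups, and the log2 fold change was 0.38 ± 0.04 (edgeR adjusted p = 5.92e-07). Genes of its chromosome, 15, had a median of 0.01. Smc1a had 199.8, 204 and 203 CPM in serum and 232, 245 and 225 CPM in 2i, which gave a log2 value of 0.21 ± 0.05 (edgeR adjusted p = 0.0018). Stag1 had 87.8, 94.0 and 97.7 CPM in serum and 136, 124 and 127 CPM in 2i. It rose by 0.47 ± 0.06 on the log2 scale (edgeR adjusted p = 2.1e-06), beside 0.46 in J1.

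Stag2, the other alternative subunit, moved the opposite way. Its level was 93.9, 104 and 119 CPM in 3B3L serum and 71.9, 62.6 and 70.7 CPM in 3B3L 2i. The groups did not overlap, and the log2 fold change was -0.63 ± 0.09 (edgeR adjusted p = 9.74e-06), the largest among the 10 genes. Smc3 fell from 259, 283 and 313 CPM to 255, 249.6 and 249.5 CPM, with a log2 value of -0.18 ± 0.06 (edgeR adjusted p = 0.0149). Without 3B3L serum replicate 3, its highest library, it was not called (-0.11, edgeR adjusted p = 0.103). Nipbl, Wapl, Pds5a and Pds5b were not called in 3B3L, with log2 fold changes of -0.08, 0.16, -0.09 and -0.04. The lowest bound of their 95% intervals was -0.28 and the highest 0.31.

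**Figure D2:**
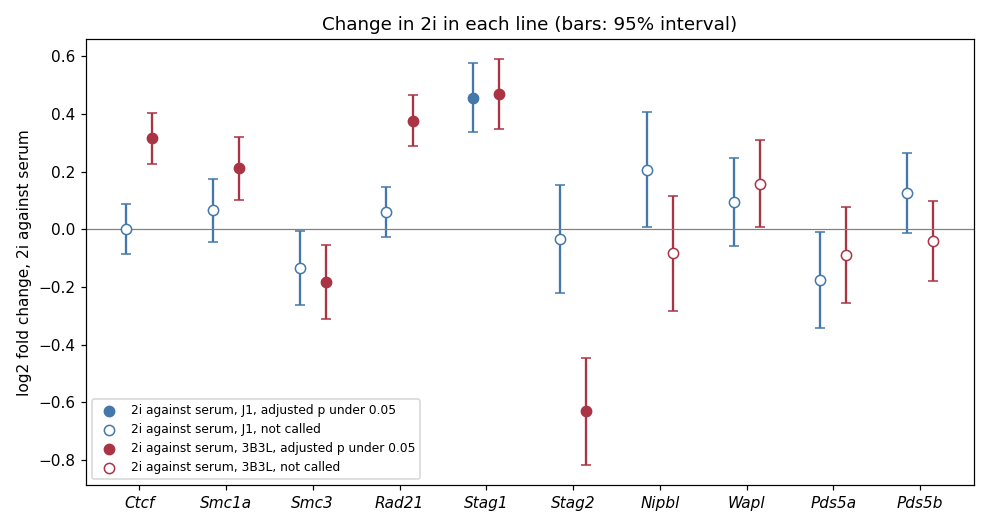
Log2 fold change of 2i against serum (y axis) for each of the 10 genes in J1 (blue) and 3B3L (red); bars are 95% intervals, filled points passed an edgeR adjusted p of 0.05. Stag1 is filled in both lines (0.46 and 0.47), while Ctcf, Smc1a, Smc3, Rad21 and Stag2 are filled in 3B3L only, where Ctcf, Rad21 and Stag2 stand at 0.32, 0.38 and -0.63.

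Whether the change between serum and 2i, which in J1 includes feeder culture, differed between the lines was tested directly as an interaction. It was called for 3 of the 10 genes, Ctcf (0.31 ± 0.06, edgeR adjusted p = 0.000651), Rad21 (0.32 ± 0.06, edgeR adjusted p = 0.000567) and Stag2 (-0.60 ± 0.12, edgeR adjusted p = 0.0016). Of all genes tested, 34.7% were called, so the share among the 10 was near the background. For Stag1 the difference between lines was 0.01, with an interval from -0.16 to 0.18. For Smc1a and Smc3, which were called in 3B3L and not in J1, the difference itself was not called (0.15 and -0.05, edgeR adjusted p = 0.136 and 0.696). Chromosome 8 had the highest median interaction of the 20 chromosomes, 0.28, beside 0.31 for Ctcf. The medians of chromosomes 15 and X, which hold Rad21 and Stag2, were 0.04 and -0.03.

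**Figure D3:**
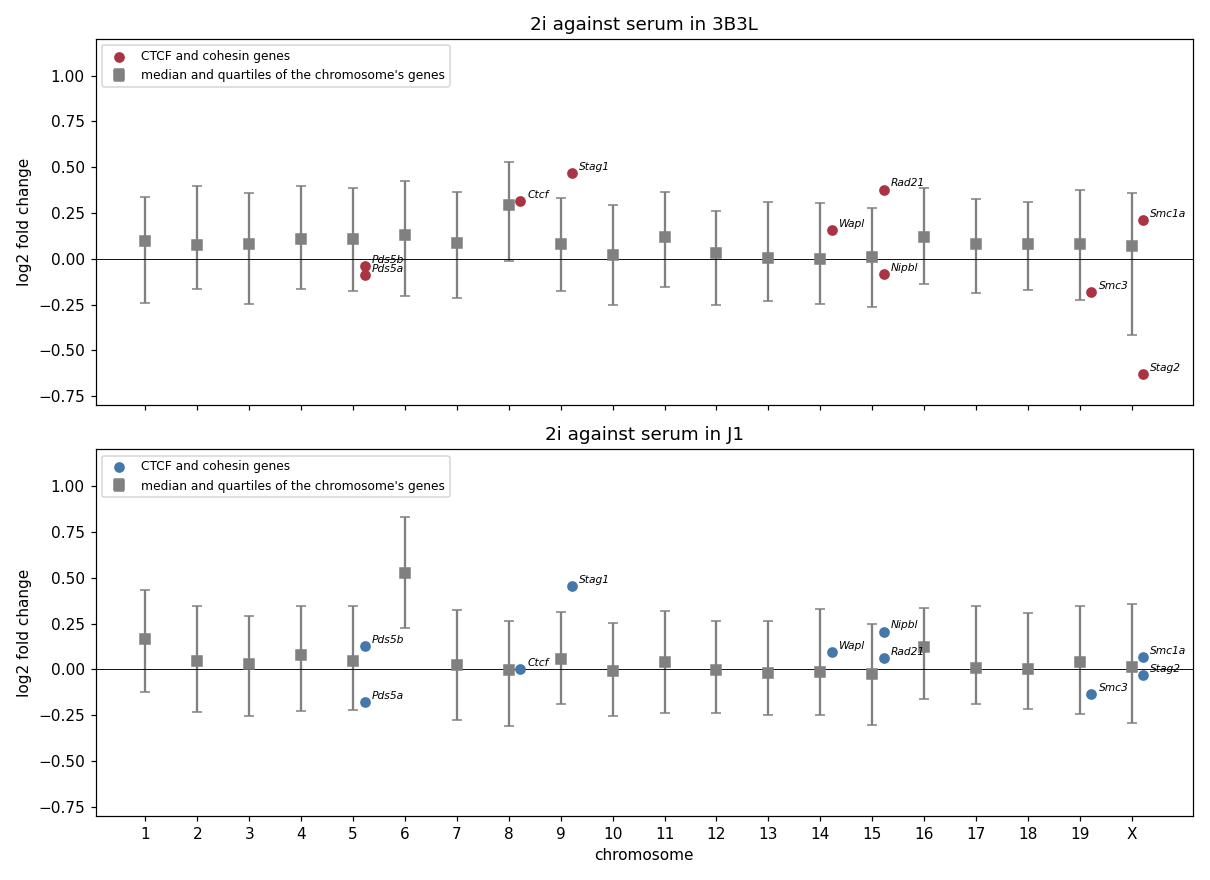
Median and quartiles (grey) of the log2 fold change of 2i against serum for genes of each chromosome, with the 10 genes beside their chromosome, in 3B3L (top) and J1 (bottom). Ctcf lies at the median of chromosome 8 in both lines (0.29 in 3B3L and -0.01 in J1), whereas Stag1, Rad21 and Stag2 lie away from the medians of their chromosomes in 3B3L. In J1, chromosome 6, which holds none of the 10 genes, has a median of 0.52.

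The lines were next compared within each medium. In serum, 3 of the 10 genes were called between 3B3L and J1, while 38.7% of all genes were. Without 3B3L serum replicate 1 the count was 6, with Smc3, Stag1 and Pds5b in addition (0.16, 0.17 and 0.19, edgeR adjusted p = 0.0387, 0.0315 and 0.0333). Ctcf was lower in 3B3L, at 136 to 145 CPM against 186 to 192 CPM in J1, a log2 difference of -0.43 ± 0.04 (edgeR adjusted p = 9.81e-07). The median of chromosome 8 in this comparison was -0.11, and 29.1% of its genes had a lower value than Ctcf. Its quartiles were -0.48 and 0.08, and Ctcf lay between them. The part of this chromosome-wide spread in the Ctcf difference was not tested. Stag2 was higher in 3B3L, at 93.9 to 119 CPM against 69.9 to 70.5 CPM, a difference of 0.59 ± 0.09 (edgeR adjusted p = 7.18e-05). Nipbl, the cohesin loader, had 94.1, 94.7 and 99.7 CPM in J1 serum and 115, 127 and 149 CPM in 3B3L serum, a difference of 0.44 ± 0.09 (edgeR adjusted p = 0.0016). All 3 of these genes separated the lines without overlap, as did Rad21 and Stag1, 5 of 10 genes in all, beside 50.9% of all genes.

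In 2i, 3 of the 10 genes were called between lines, and 45.9% of all genes. The count ran from 1 to 5 with 1 library left out. It was 1 without J1 2i replicate 1 or 3B3L 2i replicate 3, and 5 without J1 2i replicate 2, where Nipbl, Pds5a and Wapl were called (0.27, 0.26 and 0.23, edgeR adjusted p = 0.0201, 0.0111 and 0.0116). Groups did not overlap for 4 of the 10 genes (Ctcf, Smc1a, Rad21 and Pds5a) and for 52.6% of all genes. Rad21 was higher in 3B3L, at 395 to 412 CPM against 335 to 348 CPM, by 0.23 ± 0.04 (edgeR adjusted p = 0.000273). Ctcf was lower by a smaller margin than in serum, -0.12 ± 0.04 (edgeR adjusted p = 0.0263), with 173 to 178 CPM against 189 to 191 CPM. This call was lost in 5 of 13 alternatives, for instance with no filter on low counts (edgeR adjusted p = 0.0656) and without J1 2i replicate 1 or 2 or 3B3L 2i replicate 3 (edgeR adjusted p = 0.0522, 0.0598 and 0.0905). In these 5 the log2 difference lay between -0.13 and -0.11. Stag1 differed by 0.15 ± 0.06 (edgeR adjusted p = 0.0433), its groups overlapped, and the call was lost in 10 of 13 alternatives, in which the difference lay between 0.11 and 0.16. For Stag2 the lines stood at 68.4 ± 5.08 CPM in 3B3L and 68.6 ± 7.96 in J1 (SD, n = 3), and the interval of the log2 difference ran from -0.19 to 0.18. The comparisons above share libraries, so values of a gene in one are not independent of those in another.

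Cohesin holds either Stag1 or Stag2, and their per-length ratio was therefore computed in each library. The ratio of Stag2 to Stag1 was 0.626, 0.771 and 0.633 in J1 serum, 0.524, 0.456 and 0.435 in J1 2i, 0.928, 0.910 and 1.06 in 3B3L serum, and 0.375, 0.377 and 0.423 in 3B3L 2i. Within each line the 2i libraries all lay below the serum libraries. The medium effect on the log2 ratio was -0.91 (exact two-sided permutation p = 0.005, the smallest that 400 arrangements within lines can give, Benjamini-Hochberg adjusted 0.03 over 6 tests of ratios). It was -0.52 in J1 and -1.30 in 3B3L. The line effect was 0.12 (exact permutation p = 0.425, adjusted 0.637), from 0.52 in serum and -0.27 in 2i. Per length and over all transcript models, Stag1 had the higher level in all groups but 3B3L serum, where the ranges of the pair overlapped. Models annotated as protein-coding took 68.7% to 73.1% of Stag1 TPM but 94.5% to 96.9% of Stag2 TPM in the 4 groups. The order of the pair by coding models alone was not tested. Very short models enter these levels. Stag2-007 (294 bases) took 16.9% of Stag2 TPM in 3B3L serum and 6.90% in 3B3L 2i, but 0.463% and 0.194% of its reads. Stag1-009 (536 bases) took 3.00% and 8.48% of Stag1 TPM there, but 0.277% and 0.863% of its reads. The edgeR fits, on counts not divided by length, gave log2 changes of -0.63 for Stag2 and 0.47 for Stag1 in 3B3L. In J1 they gave -0.03 and 0.46.

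**Figure D4:**
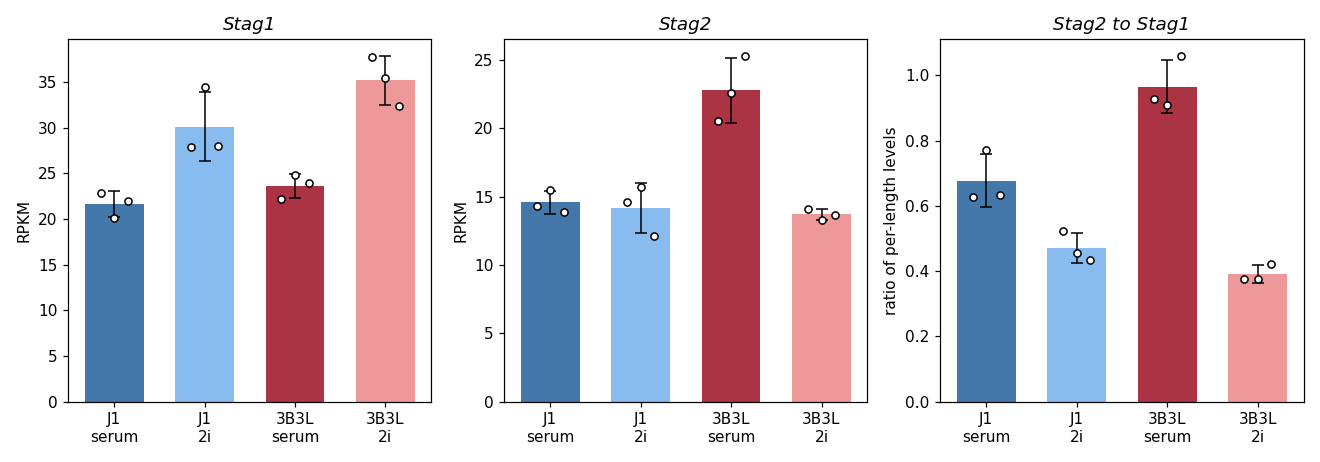
Per-length levels of Stag1 and Stag2 (RPKM) and their ratio in the 4 groups; bars are means of 3 libraries, error bars are SD and points are libraries. Stag1 is higher in 2i in both lines, Stag2 is highest in 3B3L serum (22.8 ± 2.38), and the mean ratio in serum and 2i is 0.677 and 0.471 for J1 and 0.966 and 0.391 for 3B3L.

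The ratio of Pds5a to Pds5b, paralogues that bind cohesin, was 3.92 ± 0.189 in J1 serum, 3.14 ± 0.155 in J1 2i, 3.68 ± 0.178 in 3B3L serum and 3.51 ± 0.083 in 3B3L 2i (SD, n = 3). The medium effect on its log2 value was -0.19 (exact permutation p = 0.015, adjusted 0.045), which came from J1 (-0.32) more than from 3B3L (-0.06), a difference that was not tested. The adjusted p was 0.06 with gene counts not divided by length, and 0.06 to 0.075 without any one of 3 libraries (3B3L serum replicate 2 or 3, or 3B3L 2i replicate 1). The ratio of the loader Nipbl to the release factor Wapl was 0.131 ± 0.006 in J1 serum, 0.153 ± 0.006 in J1 2i, 0.177 ± 0.014 in 3B3L serum and 0.151 ± 0.005 in 3B3L 2i. Its size depends on the short model Wapl-005, which took 40.5% to 44.6% of Wapl TPM but 3.31% to 4.08% of its reads. No effect of medium (0.00, exact permutation p = 0.995) or line (0.21, exact permutation p = 0.06, adjusted 0.12) on the log2 ratio of Nipbl to Wapl passed the threshold. The medium effect averaged opposite values, 0.22 in J1 and -0.23 in 3B3L. The line effect averaged 0.43 in serum and -0.02 in 2i. These differences within each effect were not tested. As a description, the ratio of Rad21 to Smc3 was 1.46 ± 0.115 in 3B3L serum and 2.14 ± 0.0236 in 3B3L 2i, and 1.66 ± 0.0455 and 1.88 ± 0.0744 in J1.

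Several of the 10 genes varied together between replicates. J1 2i replicate 2 was the highest library of its group for Smc3, Stag1, Stag2, Nipbl, Wapl, Pds5a and Pds5b, and 3B3L serum replicate 3 was the highest of its group for the same 7 genes. For Nipbl, whose transcript model is the longest of the 10, the log2 deviation from the group mean was 0.21 in J1 2i replicate 2 and -0.15 in replicate 3. All genes of at least 10 CPM, ranked by transcript length, deviated in the same libraries. The 20% with the longest models exceeded the 20% with the shortest by 0.17 in J1 2i replicate 2 and by 0.11 in 3B3L serum replicate 3, and differed from them by -0.20 in J1 2i replicate 3 and by -0.12 in 3B3L serum replicate 1. Ctcf and Rad21 deviated little, by at most 0.05 and 0.04 in any library. The deviations of the 10 genes did not follow length alone. Wapl, in the middle 20% by length, deviated by 0.146 in J1 2i replicate 2 and by 0.148 in 3B3L serum replicate 3. Smc1a, in the next longer 20%, deviated by 0.010 and 0.0035 in these libraries. The part of this length trend in the differences between groups was not tested. Without 3B3L serum replicate 3, the fall of Stag2 in 3B3L was still called. Over all 13 alternatives its log2 fold change ran from -0.73 to -0.54 (edgeR or DESeq2 adjusted p at most 7.86e-05).

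**Figure D5:**
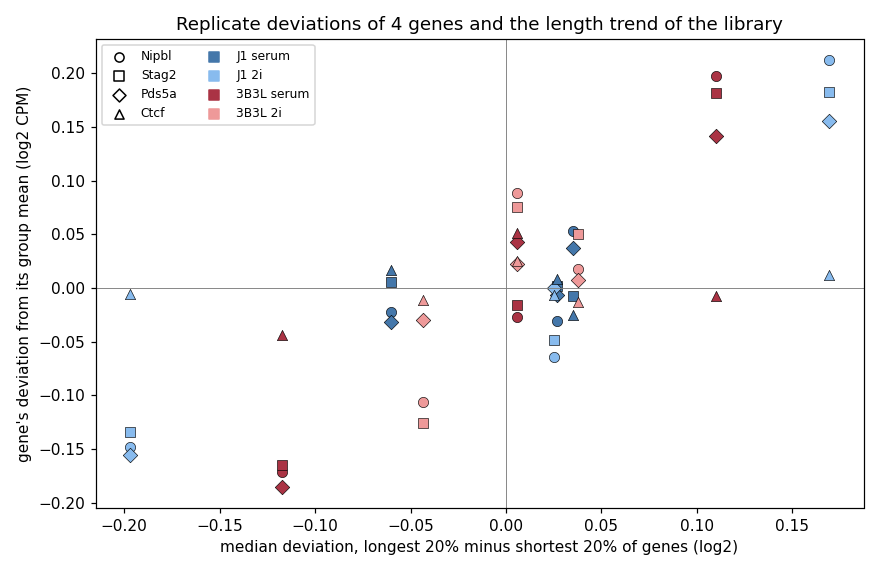
For each of the 12 libraries, the deviation of 4 genes from their group mean (y axis, log2 CPM) against the median deviation of the longest 20% minus the shortest 20% of genes (x axis, log2). Nipbl, Stag2 and Pds5a are high where long transcripts are high (J1 2i replicate 2 and 3B3L serum replicate 3) and low where they are low, while Ctcf stays within 0.05 of 0.

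The share of a gene's TPM that each transcript model took was compared for models with at least 5% in a group. Rad21, Nipbl and Pds5a have 1 model each and allow no such comparison. Between 2i and serum, shares did not overlap for 5 of 26 transcripts in J1 and 7 of 26 in 3B3L, against 24.6% and 24.1% of all transcripts. Between lines they did not overlap for 3 of 24 in serum and 4 of 24 in 2i, against 16.4% and 16.9%. With 3 libraries against 3 an exact test cannot go below p = 0.1, so none of these could pass 0.05. The coding transcript Stag2-002 (6171 bases) held 18.3%, 17.6% and 18.4% of Stag2 TPM in 3B3L serum and 26.1%, 25.2% and 26.8% in 3B3L 2i. It lay between 15.3% and 19.0% in the J1 libraries, so 3B3L 2i stood apart from all other groups (exact permutation p = 0.1). By estimated reads the share in 3B3L was 8.05 percentage points higher in 2i than in serum. Wapl-002, a processed transcript without an annotated coding sequence, went from 18.1% ± 1.61 in J1 serum to 13.01% ± 1.55 in J1 2i, without overlap (SD, n = 3). Stag1-009, a model of 536 bases, had 2.23% of Stag1 TPM in J1 serum and 10.5% in J1 2i but took under 1% of its reads in every group. The single coding model of Ctcf held 85.7% to 88.7% of its reads in the 4 groups.

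Other parts of the machinery were read from lists of related genes. Of 14 cohesin regulators tested, 6 were higher and 4 lower in J1 2i than in serum, and 7 higher and 5 lower in 3B3L 2i. Over all genes tested, 66.1% were called in J1 (33.2% higher and 32.9% lower) and 65.4% in 3B3L (32.7% in each direction), and the counts of all lists here stand beside these shares. Dscc1, part of the replication clamp loader that aids cohesion, had 10.2 ± 0.982 CPM in J1 serum and 19.2 ± 0.515 in J1 2i, and 9.996 ± 0.274 in 3B3L serum and 21.0 ± 0.647 in 3B3L 2i, with log2 fold changes of 0.92 and 1.07 (edgeR adjusted p = 8.84e-09 and 1.14e-09). Ddx11, a helicase with a role in cohesion, rose by 0.42 in J1 and 0.53 in 3B3L (edgeR adjusted p = 6.07e-07 and 3.63e-08). Plk1, the mitotic kinase that helps release cohesin from chromosome arms, fell in both lines (-0.66 and -0.32, edgeR adjusted p = 1.84e-08 and 4.85e-05), and securin, Pttg1, fell by 1.13 on the log2 scale in J1 and by 0.32 in 3B3L (edgeR adjusted p = 8.67e-09 and 0.00399).

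Among the 4 meiotic cohesin genes, Stag3 was the most abundant, and Rad21l, at most 0.309 CPM in any library, did not pass the filter. Stag3, the meiotic counterpart of Stag1 and Stag2, had 62.8 ± 3.2 CPM in J1 serum, 143 ± 9.41 in J1 2i, 113 ± 5.36 in 3B3L serum and 149 ± 0.93 in 3B3L 2i (SD, n = 3). It rose by 1.18 in J1 and 0.40 in 3B3L (edgeR adjusted p = 3.79e-11 and 9.93e-06), and the difference of these effects was called (-0.78, edgeR adjusted p = 2.86e-06). Smc1b, the meiotic counterpart of Smc1a, fell by 0.98 and 2.97 on the log2 scale (edgeR adjusted p = 2.48e-05 and 1.13e-10), from 14.5 ± 2.5 to 1.86 ± 0.405 CPM in 3B3L. Rec8 was not called between media in either line (-0.15 and 0.00).

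Of 12 genes related to CTCF (its paralogue Ctcfl and factors reported to act with it), 1 was higher and 6 lower in J1 2i, and 2 higher and 4 lower in 3B3L 2i, so that 7 and 6 of 12 were called beside 66.1% and 65.4% of all genes. Vezf1, a zinc finger factor, fell by 0.45 in J1 and 0.68 in 3B3L (edgeR adjusted p = 2.69e-06 and 1.85e-08). Top2b, a topoisomerase found at loop anchors, fell by 0.67 in 3B3L (edgeR adjusted p = 1.11e-07) and gave -0.11 in J1 (edgeR adjusted p = 0.139). Adnp fell by 0.51 in J1 (edgeR adjusted p = 0.000135) and gave -0.16 in 3B3L (edgeR adjusted p = 0.133). Of 15 genes of condensin and the SMC5/6 complex, 6 were higher and 1 lower in J1 2i, and 6 higher and 2 lower in 3B3L 2i, which is 7 and 8 of 15 called and a smaller share than among all genes in both lines. The SMC5/6 subunits Nsmce1 and Nsmce3 rose in both lines, by 0.47 and 0.57 in J1 and 0.68 and 0.44 in 3B3L. The condensin subunit Ncapd2 rose by 0.53 in J1 (edgeR adjusted p = 1.3e-07), while its level in 3B3L was 509 ± 9.04 CPM with serum and 470 ± 15.0 CPM with 2i, a log2 value of -0.12 (edgeR adjusted p = 0.0518). The medians of these lists lay between -0.15 and 0.17 in J1 and between -0.09 and 0.12 in 3B3L, beside 0.01 for all genes in each line.

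Markers of fibroblasts, the usual feeder cells, moved with the medium. The summed level of 15 markers was 62.8 to 66.5 CPM in J1 serum, 26.9 to 28.7 in J1 2i, 80.2 to 93.9 in 3B3L serum and 18.4 to 19.2 in 3B3L 2i. Of the 10 markers that passed the filter, 1 was higher and 7 lower in J1 2i, and 1 higher and 8 lower in 3B3L 2i, beside the 33.2% higher and 32.9% lower of all genes in J1 and 32.7% each way in 3B3L. The marker that was higher in J1 2i was Pdgfrb, a receptor gene, which rose from 6.31 ± 0.855 to 19.4 ± 0.896 CPM (log2 fold change 1.62, edgeR adjusted p = 5.85e-10) and made up most of the J1 2i sum. The other 14 markers summed to 57.4 to 60.0 CPM in J1 serum, 6.96 to 8.66 in J1 2i, 72.8 to 87.5 in 3B3L serum and 10.99 to 11.97 in 3B3L 2i, a division made after the values were seen. The sum was higher in 3B3L serum, grown without feeders, than in J1 serum. Lum was at 0 in all libraries but 1, and Dcn and Twist2 were at 0 in both 2i groups. Whether fibroblasts were present, and their part in the differences above, was not tested. In bulk RNA, fewer cells of a type and less RNA per cell cannot be told apart.

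As a description over the 12 libraries, the genes with levels most like those of Ctcf among 9401 genes of at least 10 CPM were Cenpn, Ranbp10 and Chfr (Pearson r of log2 CPM 0.98 for each). Cenpn and Ranbp10 lie on chromosome 8, like Ctcf, and Chfr on chromosome 5. For Rad21, on chromosome 15, they were Map4k3, Gcnt2 and Mtmr7 (r = 0.99, 0.99 and 0.98), on chromosomes 17, 13 and 8. Among the 10 genes, the highest coefficients were those of Smc3 with Pds5a (0.86) and Smc1a with Rad21 (0.85), and the lowest was that of Ctcf with Stag2 (-0.86). All of these rest on 12 libraries in 4 groups, which share their group means.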

How the data were processed

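Stranded poly(A) RNA libraries were quantified by the authors with Sailfish against mm10 transcript models and summarised with tximport. They deposited a table of estimated counts per gene, not scaled for length or depth, and for each library a transcript table with TPM and estimated counts. The sequencing pool of each library is not given in the sources used here, and any pool effect was not tested. Replicates are labelled as biological.

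Groups and replicates follow the sample labels. The 10 genes, the related lists, the tests and the alternatives were chosen with earlier results of these data known. The deposited estimated counts were rounded, filtered for low counts, scaled by TMM and fitted in edgeR 4.0.16 (R 4.3.3, quasi-likelihood, 4 groups in 1 model, 17885 genes), with Benjamini-Hochberg adjustment over all genes in each of 5 comparisons. CPM uses TMM library sizes. RPKM values are estimated reads divided by the effective length of each transcript in kb, summed per gene and scaled to the TMM library size. Short transcripts (effective length under 50 bases) held 18.8% to 50.2% of the deposited TPM, so TPM served for shares of a gene's transcripts and as an alternative. Ratios were compared with exact two-sided permutation tests within lines or media. DESeq2 1.42.0 was an alternative. The fit was tested on simulated data.

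All 10 genes were named. Of each related list, at most the 3 genes per line with the largest called change in 2i and at least 10 CPM were eligible. Of 82 listed genes, 81 were matched by symbol. Coordinates and chromosomes are those of RefSeq GRCm38.p6 (mm10), and chromosome and length medians were added after the data were seen. Counts of replicates within groups differed by more than sampling noise (chi-square per degree of freedom 4.14 to 26.8).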

Additional observations from a re-analysis of the deposited data

Results flagged for a closer look

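The change between serum and 2i differed between lines for 3 of the 10 genes in a direct test (edgeR interaction, 34.7% of all genes called). In J1 this change includes feeder culture. For Ctcf the log2 effect of 2i in 3B3L minus that in J1 was 0.31 (edgeR adjusted p = 0.000651), with each of the 3 libraries of 3B3L 2i above each of 3B3L serum and overlapping groups in J1. The median of the genes on chromosome 8, where Ctcf lies, was 0.28 in the same comparison. For Rad21 the difference was 0.32 (edgeR adjusted p = 0.000567), and the median of chromosome 15 was 0.04. For Stag2 it was -0.60 (edgeR adjusted p = 0.0016), and the median of the X chromosome was -0.03. Each of the 3 differences was called in all 18 alternatives, over which Ctcf ran from 0.28 to 0.36, Rad21 from 0.28 to 0.33 and Stag2 from -0.68 to -0.50.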

How the results depend on the processing

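Of 16 called changes of the 10 genes, 13 were called in the same direction under every alternative run for them, and none reversed. The exceptions were Smc3 between media in 3B3L, and Ctcf and Stag1 between lines in 2i, whose values stand beside the results. For J1, where 1 gene was called between media, 3 were called with DESeq2 size factors, with DESeq2, with at least 10 counts in every library or with only the libraries compared, 4 with no filter and 2 with transcript length offsets. Between lines in 2i, where 3 were called, no filter left 1. A fold of at least 1.5 left 0 genes in J1, 1 in 3B3L, 1 between lines in serum, 0 in 2i and 1 in the interaction. Leaving out 1 library at a time gave 1 to 3 genes in J1, 6 to 7 in 3B3L, 3 to 6 between lines in serum, 1 to 5 in 2i and 3 to 4 in the interaction.

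Replicate numbers did not pair the samples (correlations of deviations from -0.12 to 0.02). With the replicate block the counts of called genes stayed within 1.5 times, and the block leaves 64 arrangements for the ratios, so that the medium effects on Stag2 to Stag1 (-0.91) and Pds5a to Pds5b (-0.19) had an adjusted p of 0.0938 each. Undivided gene counts gave -0.18 for Pds5a to Pds5b (adjusted p = 0.06). Without 1 library, the effects of medium and line were -0.95 to -0.86 and 0.09 to 0.17 for Stag2 to Stag1, -0.21 to -0.17 and 0.01 to 0.05 for Pds5a to Pds5b, and -0.034 to 0.019 and 0.19 to 0.24 for Nipbl to Wapl, in which the medium effect changed sign in 6 of 12 cases.

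Transcripts without overlap numbered 3 in J1 and 5 between lines in serum by estimated reads, and 3 in J1 and 4 in 3B3L at a share of 10%. Without 1 library they numbered 5 to 10 in J1, 8 to 12 in 3B3L, 3 to 8 between lines in serum and 5 to 9 in 2i, more than the 5, 7, 3 and 4 of the full groups in most cases, since smaller groups overlap less. Changes that were not called and changed sign were Ctcf in J1 (-0.011 with DESeq2 size factors, -0.011 with DESeq2, -0.020 with no filter, -0.022 with 10 counts in every library, -0.16 with length offsets, -0.012 with only the libraries compared), Wapl in J1 (-0.026) and Pds5b between lines in 2i (0.027) with length offsets, and Stag1 in the interaction (-0.022 with 10 counts in every library). Leaving out 1 library also turned the sign of uncalled values, which ran from -0.013 to 0.0086 for Ctcf and -0.13 to 0.033 for Stag2 in J1, from -0.16 to 0.022 for Nipbl and -0.096 to 0.030 for Pds5b in 3B3L, from -0.071 to 0.091 for Stag2 and -0.071 to 0.024 for Pds5b between lines in 2i, and from -0.11 to 0.023 for Smc3, -0.028 to 0.067 for Stag1 and -0.0035 to 0.14 for Wapl in the interaction. The ratio of the highest to the lowest gene per length was 7.49 with deposited TPM, 7.54 with total reads and 7.69 with models of at least 1000 bases, an alternative chosen after seeing the data. Counting error did not limit these genes.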

Other observations

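Chromosome-wide shifts between groups were not limited to chromosome 8. Genes of chromosome 6 had a median log2 fold change of 0.52 between 2i and serum in J1, against 0.13 in 3B3L and 0.05 for all genes in J1. Genes of chromosome 11 had a median of -0.30 between 3B3L and J1 in serum and -0.24 in 2i. Relative to all genes and to their mean over the 12 libraries, genes of chromosome 8 lay between 0.05 and 0.07 (log2) in the J1 serum libraries, between -0.01 and 0.01 in J1 2i, between -0.13 and -0.09 in 3B3L serum and between 0.05 and 0.06 in 3B3L 2i. Copy number of the chromosomes was not measured in these files.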
